A study of Mus musculus with 4 samples.

Results

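Trpv6 and S100g belong to the route by which intestinal epithelium absorbs calcium. They are described here with 6 other genes of that route, Vdr, Atp2b1, Cldn2, Cldn15, Cyp24a1 and Slc8a1. The set was chosen by the log2 ratios of Trpv6 and S100g on these same 4 arrays, which were lower in the older mice, so their difference between the ages is a description and carries no test. All gene probes whose accession mapped to 1 of the 8 symbols were taken, which gave 12 of the 41174 probes on the array. Of these 12 probes, 8 were well above background often enough to be kept, and they stand for 7 of the 20834 genes tested. Cyp24a1 had no kept probe.

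The RNA was total RNA of colonic mucosa sheared off C57BL/6 mice. Each of 4 arrays, called a, b, e and k as in the labels, compared 1 RNA of an animal at 90 postnatal days (P90) with 1 RNA of an animal at 30 postnatal days (P30) on a two-colour oligonucleotide array, so n = 4 pairs. P90 carried the dye Cy3 and P30 the dye Cy5 on arrays a, b and k, and the dyes were exchanged on array e. The labels give no treatment, genotype or sex, do not say where along the colon the mucosa was taken, and do not say whether each animal was used once, so the spread between arrays may be partly technical. The series asks which colonic transcripts differ between juvenile and young adult mice.

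Calcium crosses the intestinal epithelium either through the cells or between them. In the transcellular route it enters at the lumen through the channel TRPV6, is carried through the cytosol by calbindin-D9k, the product of S100g, and leaves at the blood side through the pump PMCA1, encoded by Atp2b1, and the sodium-calcium exchanger encoded by Slc8a1. The vitamin D receptor, encoded by Vdr, raises transcription of Trpv6 and S100g when it binds active vitamin D, and also that of Cyp24a1, whose enzyme breaks the hormone down. Claudin-2 and claudin-15 form pores for cations in the tight junctions of the paracellular route. The duodenum is best known for the transcellular route, and caecum and colon express its genes too.

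The promoters of Trpv6 and S100g are shown because both genes were lower at P90 on all 4 arrays and both are known targets of the vitamin D receptor. Each sequence is the 250 bases before the RefSeq transcription start, read 5′ to 3′ on the strand of the gene, from the RefSeq table of assembly GRCm38.p6. The Trpv6 window is chr6:41636406-41636655 and the S100g window is chrX:162964600-162964849, both on the minus strand. Capitals mark matches, on either strand, to the nuclear receptor half-site AGGTCA or to a variant of it (GGGTCA, the variant AGTTCA or the variant GGTTCA), so a match on the other strand reads as its reverse complement.
Trpv6: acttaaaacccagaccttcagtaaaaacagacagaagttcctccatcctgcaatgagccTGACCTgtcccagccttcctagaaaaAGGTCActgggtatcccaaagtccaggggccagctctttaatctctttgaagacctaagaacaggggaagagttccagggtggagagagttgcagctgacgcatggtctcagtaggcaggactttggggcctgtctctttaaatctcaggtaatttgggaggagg
S100g: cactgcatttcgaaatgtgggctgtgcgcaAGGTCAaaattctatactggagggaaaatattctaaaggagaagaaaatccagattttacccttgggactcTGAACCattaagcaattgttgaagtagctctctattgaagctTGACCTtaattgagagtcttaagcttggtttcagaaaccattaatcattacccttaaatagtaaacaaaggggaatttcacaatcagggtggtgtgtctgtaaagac

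The Trpv6 window held AGGTCA 2 times, at bases -191 to -186 on the other strand and at -165 to -160 on the strand of the gene, counted back from the start. The S100g window held AGGTCA 2 times, at -220 to -215 on the strand of the gene and at -107 to -102 on the other strand, and GGTTCA at -149 to -144 on the other strand. Of 32851 promoter windows of the same length in the table, 14.0% held AGGTCA at least once and 1.36% at least 2 times. At least 1 match to any of the 4 half-sites was in 38.6% of the windows, and at least 2 matches were in 9.75%. GGGTCA was in 11.6% of the windows, AGTTCA in 11.8% and GGTTCA in 8.85%. A direct repeat of 2 of these half-sites with 3 bases between them, searched on both strands, was in 13 of the 32851 windows and in none of the members' windows. Promoters were listed for 7 of the 8 members. The Vdr window held AGTTCA at -91 to -86, the Cldn2 window held GGTTCA at -80 to -75, and those of Atp2b1, Cldn15 and Slc8a1 held none of the 4 letter strings. These matches are letters in a window and do not show binding, and bases outside the windows were not searched.

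At P90 the mucosa had less Trpv6 and less S100g RNA than at P30 on each array, while the other 5 measured members had values on both sides of 0. Trpv6 had a mean log2 P90/P30 of -2.87 ± 2.23 (SD, n = 4), which is 7.33-fold lower, and S100g had -2.53 ± 1.11, which is 5.77-fold lower as measured and understated, since its P30 spot was saturated on 2 of the 4 arrays. Ordered by measured mean log2 ratio, Trpv6 was the lowest of the 20834 genes and S100g, with its understated value, number 3. Vdr, which encodes the vitamin D receptor, had a mean of 0.12 ± 0.28. Of the 7 measured members, 2 were below 0 on all 4 arrays, where the background was 7.98% of all genes, and 0 were above 0 on all 4, where it was 6.15%. The levels of the ages did not overlap for 2 members, both lower at P90, against a background of 1.77% of genes lower and 0.884% higher in that way. These counts include the values that chose the set and are no evidence about it. With limma and Benjamini-Hochberg adjustment over all genes at 0.05, 0 of the 20834 genes passed (0%), the smallest adjusted p was 0.617, and 1646 genes had an unadjusted p under 0.05. In bulk tissue, fewer cells that express a gene and less RNA per cell cannot be told apart.

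**Figure D1:**
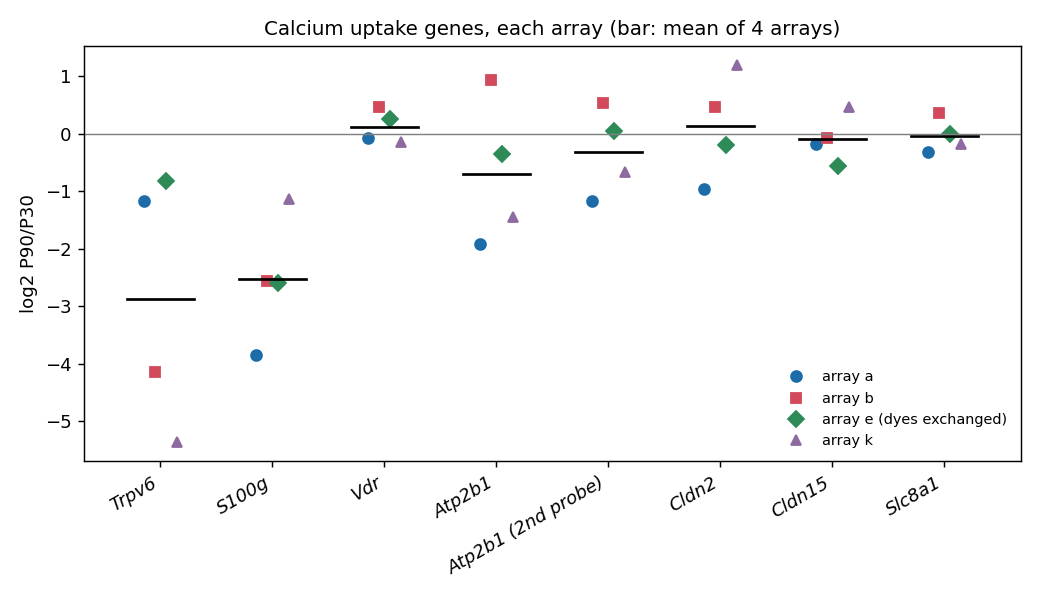
The log2 P90/P30 ratio of each kept probe of the calcium uptake genes on arrays a, b, e and k, with a bar at the mean of the 4 arrays. Trpv6 and S100g lie below 0 on each array, Trpv6 between -5.36 and -0.82 and S100g between -3.84 and -1.13, while each other probe has at least 1 array on either side of 0.

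Trpv6, the entry channel, was measured by 1 probe (A_51_P479029). Its median spot signal at P90 was 460, 220, 659.5 and 573.5 on arrays a, b, e and k, against 3168, 3539.5, 1294 and 42387.5 at P30, and it was well above background in all 8 channels with none saturated. The P30 RNA of array k stood apart from the other P30 RNAs, and the P90 RNA of array b was the dimmest of all. On the normalized log2 scale, where levels of this probe can be compared across arrays, P90 was at 9.82, 7.29, 9.42 and 9.78 on arrays a, b, e and k, and P30 at 10.99, 11.44, 10.25 and 15.14. All 4 P90 levels lay below all 4 P30 levels, with 0.43 between the highest P90 and the lowest P30 level. The log2 P90/P30 was -1.17, -4.14, -0.82 and -5.36 on arrays a, b, e and k.

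The large differences of Trpv6 came from different ages on arrays b and k. On array k the P30 level was 13.0-fold above the next highest P30 level while the P90 level was similar to those of arrays a and e. On array b the P90 level was 4.38-fold below the next lowest P90 level while the P30 level lay within the range of the other P30 levels. The SD of the Trpv6 level was 2.18 among the P30 RNAs and 1.20 among the P90 RNAs, against a median SD over all genes of 0.28 and 0.31. Without array k the mean log2 ratio was -2.04, and without array e, where the difference was smallest, it was -3.56.

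S100g, the cytosolic calcium carrier, was also measured by 1 probe (A_51_P118545). Its median signal at P90 was 1397.5, 8125, 11572 and 17358 on arrays a, b, e and k. At P30 it was 51758 on a and 55092 on b, and the spot was saturated on e and k, at 65535 and 65507, where 65507 is the scanner's saturation value. Every P30 signal was thus at or near the top of the scale. The log2 P90/P30 was -3.84, -2.55, -2.59 and -1.13 on arrays a, b, e and k, and the size of the difference is understated on e and k because the P30 signal is only a lower bound there. The normalized P90 levels were 11.41, 12.89, 13.33 and 14.49, and the P30 levels 15.25, 15.45, 15.92 and 15.62, with 0.77 between the ages at the nearest pair. P90 RNAs differed among themselves, with an SD of 1.27, and the P30 RNAs, limited by saturation on 2 arrays, had one of 0.28. Leaving out the saturated spots, which leaves arrays a and b, put the mean log2 ratio at -3.20.

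**Figure D2:**
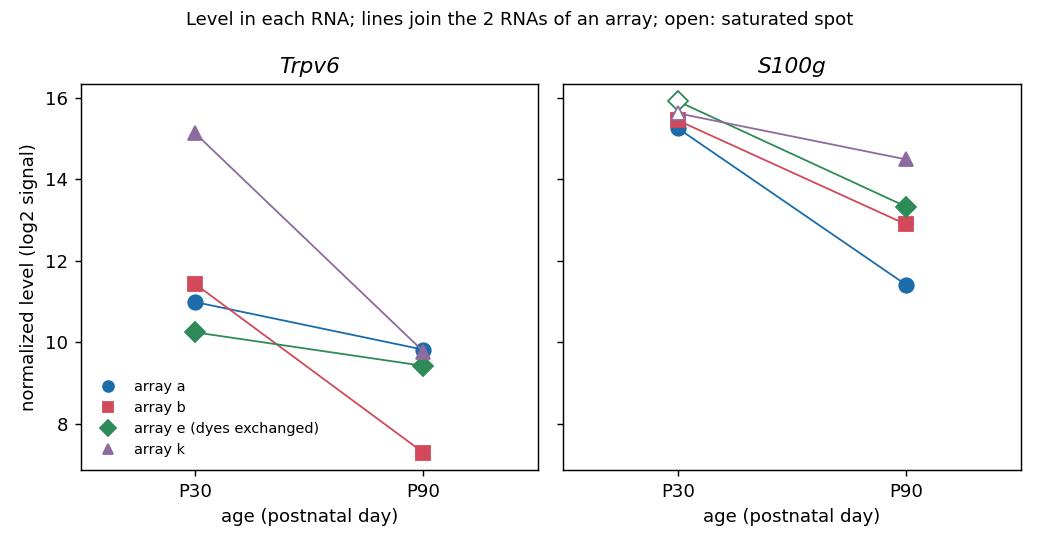
Normalized log2 signal of Trpv6 and S100g in the P30 and the P90 RNA of each array, with a line joining the 2 RNAs hybridised together and open marks for saturated spots. The P90 levels of Trpv6 (7.29 to 9.82) lie below its P30 levels (10.25 to 15.14), and those of S100g (11.41 to 14.49) below its P30 levels (15.25 to 15.92).

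The order of the arrays can be read for Trpv6, whose difference was largest on array k and next largest on b, but not for S100g, whose ratios on e and k are bounds. On arrays a and b, where neither gene had a saturated spot, Trpv6 had the larger difference on b (-4.14 against -1.17) and S100g the larger on a (-3.84 against -2.55). The root mean square difference between the 2 measured profiles over the 4 arrays was 2.77 on the log2 scale, saturated spots included. Array b ran against the other arrays over all genes, with a correlation of log2 ratios of -0.303 with array a over all probes, -0.269 with e and -0.172 with k, while a, e and k correlated with each other at 0.303 to 0.582. The dyes stated in the labels were kept for array b. Of 5636 genes below 0 on arrays a, e and k, 29.5% were also below 0 on array b, and Trpv6 and S100g were among them. With the sign of array b turned, the mean was -0.80 for Trpv6 and -1.25 for S100g. Both genes would then be above 0 on array b and below 0 only on a, e and k. Their levels would then overlap between the ages.

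On the extrusion side, Atp2b1, which encodes the basolateral calcium pump, had 2 probes. The brighter probe (A_52_P348986) had a log2 P90/P30 of -1.92, 0.93, -0.36 and -1.45 on arrays a, b, e and k, a mean of -0.70 ± 1.27 (SD, n = 4). The other probe (A_51_P230799) had -1.17, 0.54, 0.041 and -0.66, a mean of -0.31 ± 0.75, so the probes had the same sign on arrays a, b and k and opposite signs on e. Atp2b1 was thus lower at P90 on a and k and higher on b by both probes, and its normalized levels overlapped between the ages (9.82 ± 0.56 at P90 and 10.52 ± 0.83 at P30 for the brighter probe). Slc8a1, the sodium-calcium exchanger, was near the bottom of the scale. Of its 4 probes, 1 was kept (A_52_P562704), with -0.31, 0.36, -0.0055 and -0.17 on arrays a, b, e and k and a mean of -0.032 ± 0.29. The other 3 probes were well above background in 1 of 24 channels and give no ratio.

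The pore-forming claudins of the paracellular route had no common direction. Cldn2 had a log2 P90/P30 of -0.95, 0.46, -0.19 and 1.20 on arrays a, b, e and k, a mean of 0.13 ± 0.92 (SD, n = 4). Its levels ranged over both ages alike, with 11.82 ± 0.83 at P90 and 11.70 ± 0.54 at P30. Cldn15 had -0.18, -0.069, -0.55 and 0.47, a mean of -0.084 ± 0.42, and levels of 12.64 ± 0.59 at P90 and 12.73 ± 0.30 at P30. Both were highest relative to P30 on array k, where Trpv6 was lowest.

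Vdr was bright on every array, with signals of 16463 to 43758 and no saturated spot. Its log2 P90/P30 was -0.081, 0.46, 0.25 and -0.14 on arrays a, b, e and k, and its levels were 14.69 ± 0.42 at P90 and 14.57 ± 0.46 at P30, which overlapped. The receptor's RNA therefore differed between the ages by less than its spread among arrays. Cyp24a1, the vitamin D-degrading enzyme and a target gene of the receptor, had signals of 59 to 95, between 1.18 and 1.75 times the local background. It was well above background at P90 on array b only and at P30 on arrays a and k only, so no ratio is given for it.

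Beyond the 8 members, 74 genes in 6 lists cover other parts of calcium and vitamin D handling, and 62 of them were measured. None passed the limma test over all genes, and 5 had an unadjusted p under 0.05. The mean log2 ratio was below 0 for 30 and above 0 for 32, with a median of 0.018 against -0.020 over all genes tested. On all 4 arrays, 4 genes (6.45%) were below 0 and 5 (8.06%) above 0, near the background of 7.98% and 6.15%. Of the 62, 4 had a saturated spot (Calm2, S100a10, Cldn3 and Cldn7). Over the other 58 genes 29 were below and 29 above 0, with a median of 0.00081, and 3 (5.17%) were below and 4 (6.90%) above 0 on all 4 arrays.

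Among 15 measured genes of calcium entry, binding and extrusion, 6 had a mean below 0 and 9 above, the median was 0.043, and 0 passed the test. Calm2, 1 of the calmodulin genes, was below 0 on all 4 arrays with a mean of -0.49 ± 0.37 (SD, n = 4), with its P30 spot saturated on 2 arrays. Trpv5, the related renal entry channel, Calb1, encoding calbindin-D28k, the exchanger Slc8a3 and the calcium-sensing receptor Casr were on the array and not well above background often enough to be kept.

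The vitamin D list (synthesis, transport and receptor partners) had 14 measured genes, 7 below and 7 above 0, and a median of 0.011. Cyp27a1, a mitochondrial sterol and vitamin D hydroxylase, was above 0 on each array, with 0.64, 0.52, 0.79 and 1.16 on a, b, e and k and a mean of 0.78 ± 0.28 (SD, n = 4). Ncoa1, a nuclear receptor coactivator, was below 0 on each, with a mean of -0.47 ± 0.39, and so was Cyp2r1, a liver vitamin D hydroxylase, with -0.17 ± 0.088. Levels of all 3 overlapped between the ages.

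Other listed targets of the vitamin D receptor did not share a direction. Of 9 measured, 6 had a mean below 0 and 3 above, with a median of -0.20. That median is the value of Spp1, whose levels were 6.11 at P90 and 6.31 at P30. Fgf23 was at 6.38 and 6.36, and both genes lay near the levels of Cyp24a1 (6.14 and 6.13), for which no ratio is given. Slc30a10, a manganese exporter, was at -3.68, -0.51, -1.97 and -2.41 on arrays a, b, e and k, a mean of -2.14 ± 1.31 (SD, n = 4), and its second probe had a mean of -1.26. Its P90 levels, 8.33 to 10.09, lay below its P30 levels, 10.60 to 12.01. Cyp3a11, a drug and steroid hydroxylase, was at 0.48, 2.40, 2.51 and 1.44, a mean of 1.71 ± 0.95, and its P90 levels, 7.77 to 9.56, lay above its P30 levels, 6.65 to 7.29. These 2 genes stood farthest from 0 in all 6 lists, on opposite sides, and neither passed the test over all genes. Tnfsf11, the bone resorption cytokine RANKL, was not kept.

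The other 3 lists held no gene with a mean as far from 0 as that of Slc30a10 or Cyp3a11. Of 8 measured genes of the paracellular cation path, 6 had no saturated spot, and of these 4 lay below and 2 above 0, with a median of -0.070. No ratio can be read for the claudin genes Cldn7, saturated in both channels on each array, and Cldn3, saturated at P30 on 3 arrays and at P90 on 1. Of 7 measured genes of phosphate and magnesium transport, 2 lay below and 5 above 0, with a median of 0.075, and the phosphate transporter Slc20a2 was at 0.29 ± 0.22 (SD, n = 4). Of 9 measured hormone receptor genes, 5 lay below and 4 above 0, with a median of -0.15, and Fgfr1, a receptor for fibroblast growth factors, was at 0.16 ± 0.17. Slc20a2 and Fgfr1 were above 0 on each array as labelled, and moved to -0.0085 and -0.043 with the sign of array b turned.

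**Figure D3:**
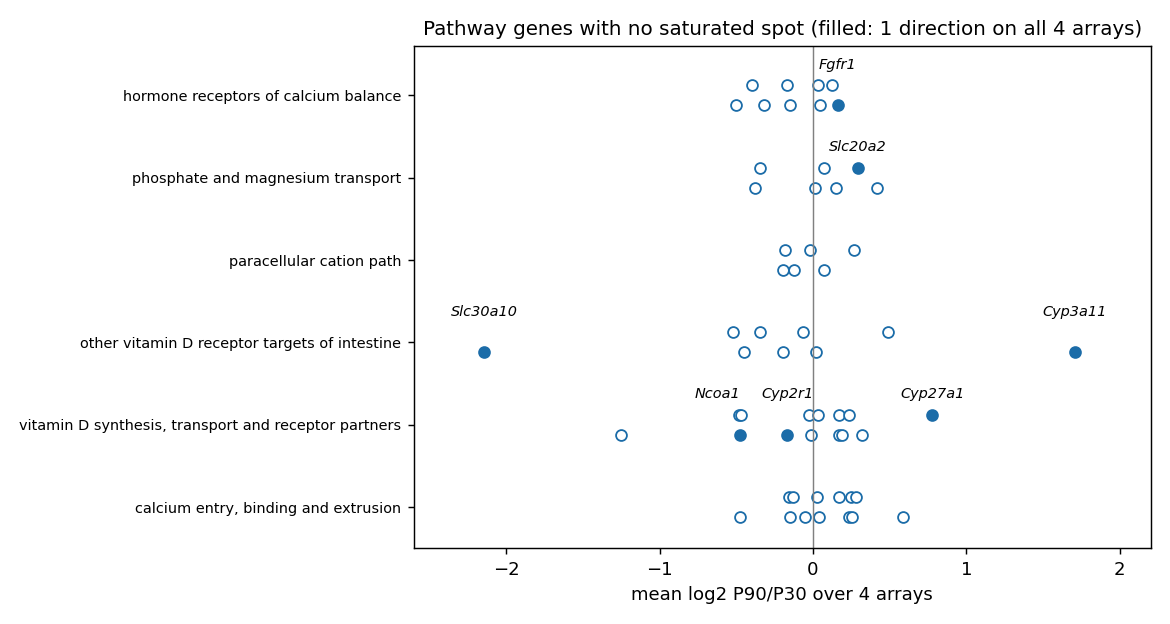
Mean log2 P90/P30 over 4 arrays of the 58 genes with no saturated spot in 6 lists of calcium, vitamin D, paracellular, phosphate and hormone genes, filled where all 4 arrays had the same sign. Slc30a10 (-2.14) and Cyp3a11 (1.71) lie farthest from 0 and most other genes lie within 1 unit of it.

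The genes whose ratios over the 4 arrays were most like those of S100g were Oasl2, with a root mean square difference of 0.26 on the log2 scale, Usp18 with 0.38, Isg15 with 0.41, Ifit3 with 0.79 and Apol9b with 0.80, taken from all genes with a symbol. Oasl2 was at -3.52, -2.85, -2.50 and -0.87 on arrays a, b, e and k, and Usp18 at -3.22, -2.70, -2.41 and -0.77. None of the 5 was saturated at P30, whereas S100g was on e and k, so these distances compare them with S100g values held at the scanner's ceiling on 2 arrays. On arrays a and b alone S100g was at -3.84 and -2.55. The nearest genes to Trpv6 were farther from it. The 5 nearest were Pbp2 with 1.83, Ly6m with 1.98, Xlr4b with 2.05, Reg4 with 2.11 and Defa20 with 2.16, and of these only Pbp2 and Ly6m were below 0 on all 4 arrays. Likeness over 4 arrays is a description.

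**Figure D4:**
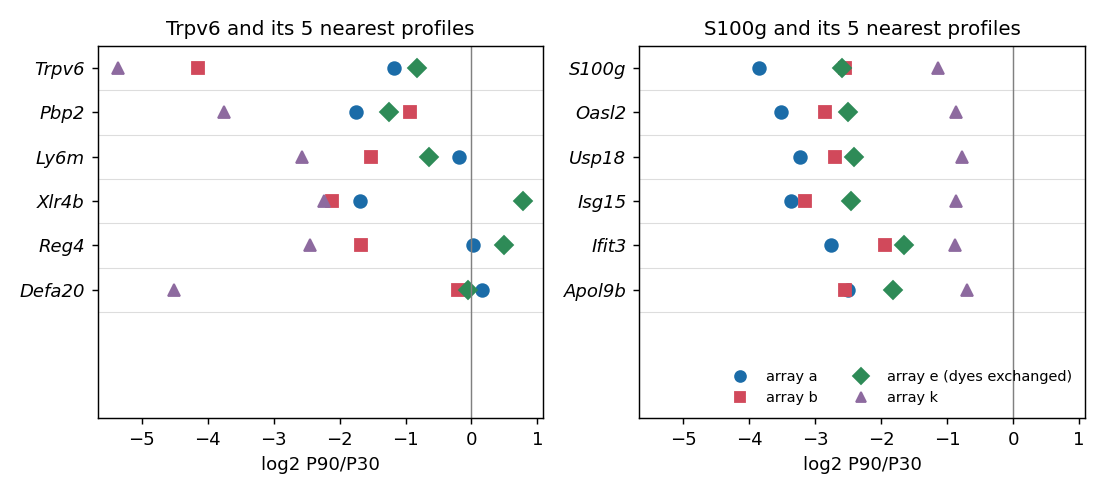
The log2 P90/P30 on arrays a, b, e and k of Trpv6 and of S100g with the 5 genes nearest to each by root mean square difference. The 5 genes beside S100g lie at distances of 0.26 to 0.80 from it, its P30 spot being saturated on e and k, and those beside Trpv6 at 1.83 to 2.16.

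The tissue label was set against markers of the cells and regions the samples could hold. The epithelial genes Krt8 and Lgals4 and the colonocyte gene Guca2a had saturated spots at both ages on all 4 arrays, so epithelium was abundant at both ages and these genes give no ratio. Of 11 epithelial markers 4 had no saturated spot, Epcam, Cdh17, Cdx1 and Cdx2, and their median log2 P90/P30 was -0.32, 0.010, -0.37 and -0.38 on arrays a, b, e and k. Relative to that median, a step added after the data were seen, Trpv6 was at -0.85, -4.15, -0.45 and -4.98, a mean of -2.61 ± 2.29 (SD, n = 4). S100g was then at -3.52, -2.56, -2.21 and -0.75, a mean of -2.26 ± 1.15. Both stayed below 0 on each array. The 4 reference genes differed among themselves, on array e from -0.75 for Cdh17 to 0.91 for Cdx1, a wider span than the -0.45 of Trpv6 there. The part of epithelial content in the values of Trpv6 and S100g was not tested. Ceacam1, the next brightest colonocyte gene, was saturated at P30 on all 4 arrays, and the 5 unsaturated markers of mature colonocytes had medians of -0.31, 0.20, -0.21 and 0.013 on a, b, e and k.

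Markers of position along the gut differed between the paired RNAs. The 12 small intestinal enterocyte genes without a saturated spot had medians of 0.059, 0.0098 and -0.058 on arrays a, b and e and of -1.02 on k, where 11 of the 12 were below 0. Their list's 2 brightest genes were Fabp2, the intestinal fatty acid binding protein, with a mean of -0.60 ± 0.73 (SD, n = 4) and a P30 spot saturated on 2 arrays, and the glucose transporter Slc5a1, with 0.10 ± 0.34. On array k Slc5a1, at 0.29, was the only unsaturated gene of the list above 0. The 11 below 0 ran there from -0.11 for Lct to -4.04 for Apoa1. Array k is also where Trpv6 had its largest difference. The summed level over all 13 measured genes of the list ran from 24265 to 66851 at P90 and from 56024 to 67354 at P30. That sum includes Fabp2, the gene of highest level in the list (15.68 at P30 on the log2 scale), with its saturated spots. The 5 unsaturated genes of caecum and proximal colon had medians of -1.60, 0.59, 0.52 and -0.13, with Cyp2c55, a cytochrome P450, at -0.57 ± 0.80 and Scnn1a, an epithelial sodium channel subunit, at 0.88 ± 0.61. These 5 genes went opposite ways on array a. There Hoxb6 was at -3.37, Osr2 at -2.35 and Hoxb5 at -1.60, against 3.76 for Slc37a2 and 1.62 for Scnn1a. Slc37a2 was at 3.76, -0.69, 3.09 and -3.95 on arrays a, b, e and k. The medians thus give no common direction for this list. Of 5 listed Paneth cell genes 2 were measured, Lyz1 and Mmp7, with means of -0.094 ± 1.42 and -0.035 ± 0.88. On array k they were at -1.24 and 1.18. The defensin gene Defa20, outside the list, was at 0.16, -0.21, -0.058 and -4.51 on arrays a, b, e and k.

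All 7 distal colon genes were below 0 on array b, with a median of -0.98, and their medians were 0.81 on a, 0.86 on e and 0.11 on k. Hoxb13, a homeobox gene of the hindgut and the brightest of them, was at 1.40, -2.05, 2.16 and -0.52 on a, b, e and k, and Ly6g6c, the next brightest, at 0.64, -0.98, 0.29 and 0.22. Hoxd13 and Scnn1g, singled out after their values were seen, were at 4.63, -4.40, 1.57 and -2.41 and at 1.76, -1.99, 1.57 and -1.77. On array k Hoxb13, Hoxd13 and Scnn1g were below 0 and the other 4 distal genes above it. Trpv6 was lower at P90 on b, where all 7 were below 0, and also on a, where none was. The summed level of the list ran from 2879 to 14837 at P90 and from 4040 to 11102 at P30. The part of these position markers in the values of Trpv6 and S100g was not tested.

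Of the cell types below or among the epithelium, the 9 fibroblast and matrix genes had medians of -3.64, 1.43, -2.28 and -2.84 on arrays a, b, e and k, and a summed level of 2609 to 32499 at P90 and 12206 to 99248 at P30. Col3a1 and Col1a2, 2 fibrillar collagen genes, had means of -2.45 ± 2.73 and -2.11 ± 2.53 (SD, n = 4). Atp2b1 had the same sign as these medians on each array by its brighter probe, and the part of stromal RNA in its values was not tested. S100g and Trpv6 had the same sign as these medians on arrays a, e and k and the opposite sign on b. The part of stromal RNA in the values of S100g and Trpv6 was not tested either. Smooth muscle genes had medians of 0.31, 0.85, 0.26 and -1.22, with Acta2 at -0.0031 ± 0.69 and Tagln at 0.16 ± 0.95.

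Adipocyte genes were the only marker list with medians of 1 sign on all 4 arrays, 0.15, 1.88, 5.45 and 0.45 over the 6 unsaturated genes. The summed level over all 8 measured adipocyte genes ran from 6410 to 196460 at P90 and from 3806 to 12763 at P30. Cfd and Fabp4 had a P90 spot saturated on 1 array each, and the adipokine gene Lep was not kept. The brightest, Fabp4 and Cidec, had means of 1.30 ± 2.53 and 0.77 ± 1.74 (SD, n = 4), each with 2 arrays below 0 and 2 above. Of the 8 measured adipocyte genes, 5 were above 0 on all 4 arrays, against 6.15% of all genes. T and NK cell genes had medians of -0.22, 0.50, 0.26 and 1.06 (Ccl5 0.92 ± 0.65, Lck 0.031 ± 0.53), and B and plasma cell genes 0.055, 0.49, 0.57 and -0.26 (Sdc1 0.23 ± 0.35, Jchain 0.49 ± 2.35). Myeloid genes had medians of -0.71, 0.81, -0.33 and -0.27 (Cd14 0.19 ± 0.62, C1qc -0.71 ± 1.36). Of 6 pancreatic acinar genes 3 were kept, Cela1 with 0.56 ± 1.23 and Ctrb1 with 0.016 ± 0.39 among them, and Cpa1, Pnlip and Amy2a5 were not. The part of these cell types in the calcium genes' values was not tested.

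**Figure D5:**
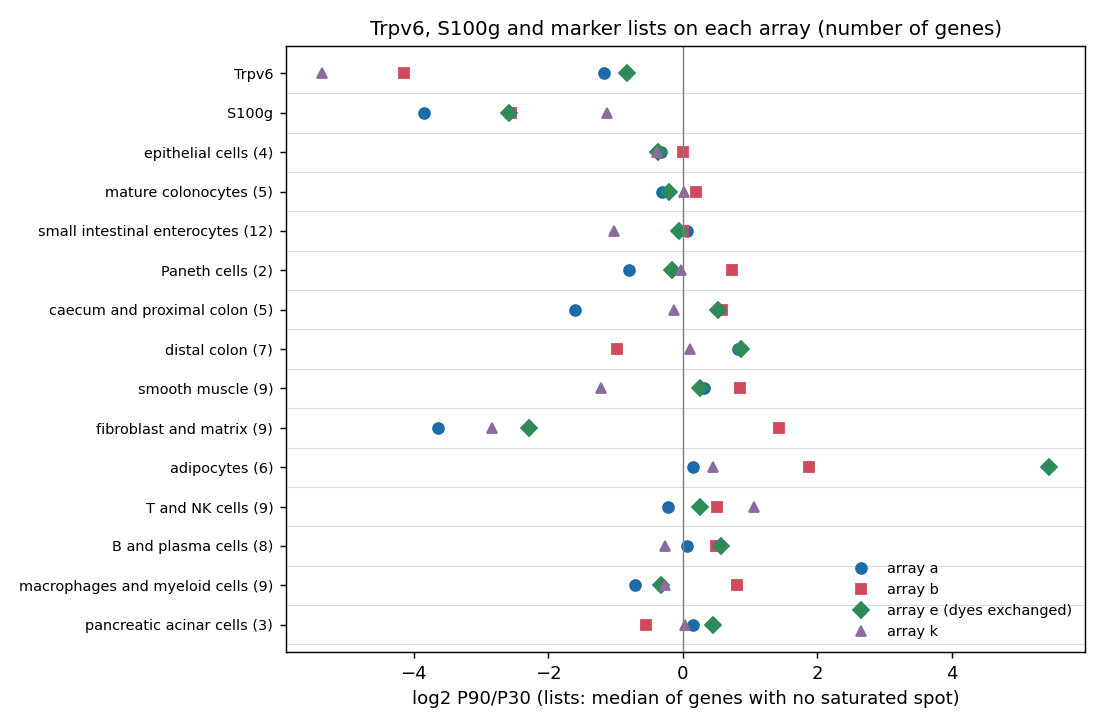
Log2 P90/P30 of Trpv6 and S100g and the median of each marker list, over its genes with no saturated spot, on arrays a, b, e and k. Trpv6 and S100g lie below 0 on every array, while each marker list except that of adipocytes has medians on both sides of 0.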

How the data were processed

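The members and gene lists were chosen with earlier results of these data known. The deposited scanner files hold the intensity of each spot and its surroundings as medians per channel, not yet normalized per the file headers. The authors' processed signals are background-subtracted intensity scaled by 1 linear factor per dye, and their log10 ratio, as deposited, divides Cy5 by Cy3, per the file headers. The deposited value table proved to hold log2 P90 over P30: 80.0% to 87.0% of probes per array lay within 0.01 of the authors' deposited log ratio turned to that scale, with array medians of -0.17 to 0.21. Saturation, background and outlier marks are other deposited columns without a unit. The software is Agilent Feature Extraction, 10.5.1.1 per the file headers and 8.5.1.1 per the submitters' processing notes. All arrays lay on 1 slide, so no batch could be tested.

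Here limma 3.58.1 in R 4.3.3 was used: normexp on median signal and background (offset 50), loess within arrays (span 0.3, control spots at zero weight), ratios turned to log2 P90/P30. Outlier spots (127 to 156 per array) were left out and saturated spots kept. Probes well above background in 1 of the 2 ages on at least 3 arrays were kept (27065 of 41174), spots of a probe were averaged, and the probe of highest mean intensity stood for its gene. Between 55.6% and 71.0% of gene spots per channel were well above background, and 57 to 374 were saturated. The P90 channel was dimmer on arrays a and k, with 55.6% and 57.3% well above background against 71.0% and 69.6% at P30. On b and e the shares were 69.3% and 65.4% at P90 and 66.6% and 64.6% at P30. Saturated spots on a, b, e and k numbered 57, 170, 304 and 120 at P90 and 355, 328, 211 and 374 at P30. Levels used Aquantile after loess. Genes were tested with lmFit and eBayes against 0, with Benjamini-Hochberg adjustment at 0.05. This step was also run on simulated ratios with independent noise, which leave out the correlations between these arrays. That run does not show how the test behaves on these data. The number of arrays limits the precision of all values.

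Named genes are the 8 members. In each pathway list they are the genes past the test, or else up to 3 with the largest mean among those in 1 direction on all 4 arrays. In each marker list they are the 2 brightest, and for Trpv6 and S100g the 5 nearest profiles. Some other marker genes are also named, after their values were seen. Probes were named through RefSeq accessions of GRCm38.p6 (25097 of 41174). The array's design belongs to another build, so no probe positions are given. Other settings of background, normalization, filter, saturation, array and dye were tried as alternatives.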

Additional observations from a re-analysis of the deposited data

Results flagged for a closer look

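Of 30 values checked for a sample far from the other 3, 3 exceeded Dixon's 95% critical value for 4 arrays, and chance marks about 1 in 20. The Trpv6 level at P90 was 7.29 on array b, far below the other 3 P90 levels (Dixon ratio 0.843). The fainter Atp2b1 probe had a P90 level of 7.62 on array b, far above the other 3 (Dixon ratio 0.918). The median of the phosphate and magnesium transport list was -0.60 on array k, far below its medians of 0.15, 0.046 and 0.089 on arrays a, b and e (Dixon ratio 0.860).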

How the results depend on the processing

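Trpv6 was at -3.56 to -0.80 under the 18 alternatives fixed at the start and the epithelial reference added after seeing the data. S100g was at -3.20 to -1.25 under the same 19. Both genes were chosen as lower at P90 and lay below 0 on each array. Leaving arrays out or weighting them therefore could not put either mean above 0. For Trpv6, with 1 probe and no saturated spot, the settings of filter, saturation and probe averaging returned the main value of -2.87. Staying below 0 under these settings is thus no test. The lowest size of each came with the sign of array b turned, at -0.80 for Trpv6 and -1.25 for S100g. With that sign both genes would be above 0 on array b itself. Leaving out each array in turn gave -3.56 to -2.04 for Trpv6 and -3.00 to -2.09 for S100g, and 0 genes past the test each time. The deposited log ratios gave -3.02 and -2.41. The number of genes past the test, 0 in the main setting, was 1 with a normexp offset of 16, and 2 each with the scanner's processed signals followed by loess, the deposited log ratio and the value table. None of them was a member or a pathway list gene, and the cause was not tested. Median centring in place of loess shifted the median of all genes by -0.19, and with it Vdr was at -0.19 and Cldn3, whose saturated spots leave its direction unread, at -0.059. With the sign of array b turned, Slc20a2 was at -0.0085 and Fgfr1 at -0.043. Slc30a10 stayed at -3.04 to -1.63 and Cyp3a11 at 0.51 to 2.38 under the 18. Cldn3 had no value with saturated spots left out. Pairing is already part of the test, because there is 1 group of ratios and each ratio compares the 2 RNAs of 1 array. Saturation limits S100g at P30, and low signal limits Slc8a1 and Cyp24a1.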
